A study of Mus musculus with 29 samples.

Results

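The Myc, Max and Mxd network is a set of basic helix-loop-helix leucine zipper transcription factors that pair with the shared partner Max. Its 10 genes Myc, Mycn, Mycl, Max, Mxd1, Mxi1, Mxd3, Mxd4, Mnt and Mga were taken by symbol from the 51912 genes of a table of RNA-sequencing counts. Of these genes, Mxd4 had been picked because it was lower in Cdkn1b-null ovaries at E18.5 and PND8 (log2 fold changes of -0.73 and -0.72), so its values are given as a description with no test, and counts of tested genes are over the other 9. The table covered 29 mouse ovary libraries of wild-type (Cdkn1b +/+) and Cdkn1b-null (Cdkn1b -/-) mice of 4 ages: embryonic days 13.5 and 18.5 (E13.5 and E18.5), day 8 after birth (PND8), and 12 weeks (12wk). Cdkn1b encodes p27Kip1, an inhibitor of cyclin-dependent kinases, and the study asked how control of the cell cycle bears on ovarian development. Each age had 4 wild-type libraries, and the null groups held 4 libraries at E18.5 and 3 at each of the other ages, where they carry replicate numbers 1, 3 and 4. RNA came from papain-dissociated whole ovaries. The strain, the allele of the null, and which animals or litters gave each library are not given in the sources used here, so p-values measure the spread between these libraries, which may be partly technical.

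Myc, Mycn and Mycl are activators that bind DNA as pairs with Max and drive genes of ribosome assembly, metabolism and cell division. Mxd1, Mxi1, Mxd3 and Mxd4 compete for Max and bring the Sin3 and histone deacetylase corepressor to the same sites, and Mnt is a widely expressed repressor of the same design. Mga, the largest protein of the network, also carries a T-box DNA-binding domain and is the scaffold of the variant polycomb complex PRC1.6, which with Max holds meiotic genes silent. In the fetal ovary, germ cells enter meiosis while the somatic cells that will become granulosa cells surround them, and after birth follicles form and grow.

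Max pairs recognise the E-box CACGTG. The motif was searched on both strands, which for this palindrome give the same matches, in RefSeq windows (GRCm38.p6) from 250 bases before to 50 after each gene's start. The table matched 9 of the 10 genes, all but Myc, in 11 windows. CACGTG lay in 3 of these 11 windows, those of Mxd4, Mnt and Max, against 7.15% of all 32851 windows of that length. The upstream stretch of each is shown, 5′ to 3′ on the gene's strand, because these 3 carry the site that the network's own proteins bind, and the site is in capitals. The stretches are chr5:34187711-34187960 (minus strand) for Mxd4, chr11:74830674-74830923 (plus strand) for Mnt, and chr12:76962246-76962498 (minus strand) for Max.
Mxd4: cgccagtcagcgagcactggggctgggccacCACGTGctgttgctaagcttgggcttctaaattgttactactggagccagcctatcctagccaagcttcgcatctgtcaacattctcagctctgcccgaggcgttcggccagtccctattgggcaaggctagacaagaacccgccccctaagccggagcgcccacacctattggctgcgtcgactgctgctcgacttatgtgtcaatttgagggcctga
Mnt: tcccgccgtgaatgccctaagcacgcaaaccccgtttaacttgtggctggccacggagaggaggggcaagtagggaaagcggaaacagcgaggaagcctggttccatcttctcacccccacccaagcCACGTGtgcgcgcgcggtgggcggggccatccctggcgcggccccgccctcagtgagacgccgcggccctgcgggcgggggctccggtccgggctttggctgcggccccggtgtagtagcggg
Max: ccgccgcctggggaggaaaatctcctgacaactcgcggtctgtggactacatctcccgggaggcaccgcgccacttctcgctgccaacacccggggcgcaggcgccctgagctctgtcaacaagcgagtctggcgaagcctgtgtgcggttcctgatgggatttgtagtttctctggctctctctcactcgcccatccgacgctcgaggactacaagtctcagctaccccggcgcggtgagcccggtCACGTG
The site began 219 bases before the start in Mxd4, 123 before it in Mnt, and 3 before it in Max, where it spans the start. A match describes the letters of the window and shows no binding. A separate motif, TTTNNCGC, in which N is any base and whose matches may overlap, is not a form of this E-box. It had 3 matches in the Mycn window, which held no CACGTG, and lay in 5.17% of all windows.

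Total counts ran from 14.1 to 24.9 M per library at the fetal ages and from 24.1 to 48.2 M at PND8 and 12wk. The headers name 2 projects combined in the table, and which libraries came from which is not given in the sources used here, so project and age, or project and genotype, may not be separable. At these depths 3 counts, taken as the smallest level the depth can show, were 0.0622 to 0.213 CPM (counts scaled to a common library total), which covers counting error only. All 10 genes were above that level in every library. Cdkn1b itself averaged 22.8, 103, 149 and 183 CPM in wild type at the 4 ages and 4.49, 12.7, 71.7 and 51.2 CPM in null ovaries, with no overlap between genotypes at any age. Globin genes took 18.97% of the counts in wild-type E13.5 replicate 3 against 0.7017 to 1.0482% in the other 3. At E18.5 they took 1.3525 to 3.5911% in replicates 1 and 3 of both genotypes and 0.1723 to 0.7381% in replicates 2 and 4. The listed granulosa-lineage markers summed to 336 to 675 CPM in wild type at E13.5 and 3200 to 5130 CPM at 12wk. The 4 listed testis markers summed to 23.5 to 96.1 CPM over all libraries. Of these, Dmrt1 was at or under 3 counts in every library at PND8 and 12wk but not at the fetal ages.

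Levels are given as CPM with scaling factors from all 29 libraries. In wild-type ovaries the 3 activators followed different courses with age. Mycn was highest in the early fetal ovary, Mycl after birth, and Myc was lowest at E18.5.

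Mycn, the activator best known from embryonic progenitor cells, stood at 204, 214, 140 and 154 CPM at E13.5, in the order of the replicate numbers. At E18.5 it stood at 29.0, 31.5, 38.6 and 54.0 CPM. At PND8 it read 77.4, 70.9, 78.0 and 69.5 CPM. Every E13.5 library was therefore above every later one, and the PND8 libraries lay wholly above those of E18.5. From E13.5 to E18.5 Mycn fell by 2.23 on the log2 scale (SE 0.217, edgeR adjusted p = 7.14e-05, 4 libraries a group), and from E18.5 to PND8 it rose by 0.86 (SE 0.185, adjusted p = 0.00164). At 12wk it was 56.4, 63.0, 68.7 and 47.4 CPM, a log2 change of -0.24 from PND8 that did not pass the test (adjusted p = 0.131).

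Myc, the archetype of the family, was 45.1, 52.1, 37.4 and 60.8 CPM at E13.5. It was 25.5, 24.9, 28.2 and 25.2 CPM at E18.5, the narrowest spread of any age. At PND8 it was 148, 137, 102 and 129 CPM. The 3 ages did not overlap, with E18.5 lowest and PND8 highest. Myc fell by 0.92 on the log2 scale (SE 0.151, adjusted p = 0.00124) and then rose by 2.23 (SE 0.134, adjusted p = 2.88e-07). At 12wk it spread from 88.8 to 202 CPM and overlapped PND8 (log2 change 0.19, adjusted p = 0.571).

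Mycl, the activator first found in lung cancer, showed the widest range. It was 17.1, 16.1, 18.4 and 14.4 CPM at E13.5. It was 7.52, 7.76, 7.53 and 10.5 CPM at E18.5. It was 228, 226, 313 and 257 CPM at PND8. The lowest PND8 library thus exceeded the highest E18.5 library by more than an order of magnitude. Mycl fell by 1.00 on the log2 scale before birth (SE 0.19, adjusted p = 0.00272), and the rise to PND8 was 4.84 (SE 0.173, adjusted p = 3.01e-08), a fitted 28.7-fold. At 12wk Mycl was 259, 370, 222 and 184.9 CPM, which overlapped PND8 (log2 change 0.1, adjusted p = 0.738). Because whole ovaries were sequenced, fewer cells of a type and less RNA per cell cannot be told apart for any of these changes. Several marker lists moved in the step to PND8, where 37.6% of all genes were called higher and 36.9% lower. Granulosa-lineage markers had 6 of 9 called higher and 2 lower, oocyte markers 6 of 9 higher and 2 lower, and proliferation markers 5 of 6 higher. Stroma markers had 4 of 6 higher and 1 lower, and steroidogenic markers 3 of 5 higher. Germ cell markers had 3 of 5 lower and 1 higher, and surface epithelium markers 3 of 4 lower. Immune markers had 4 of 5 tested lower, and erythroid markers 6 of 6 tested lower. The part of any of these lists in the rise was not tested.

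**Figure D1:**
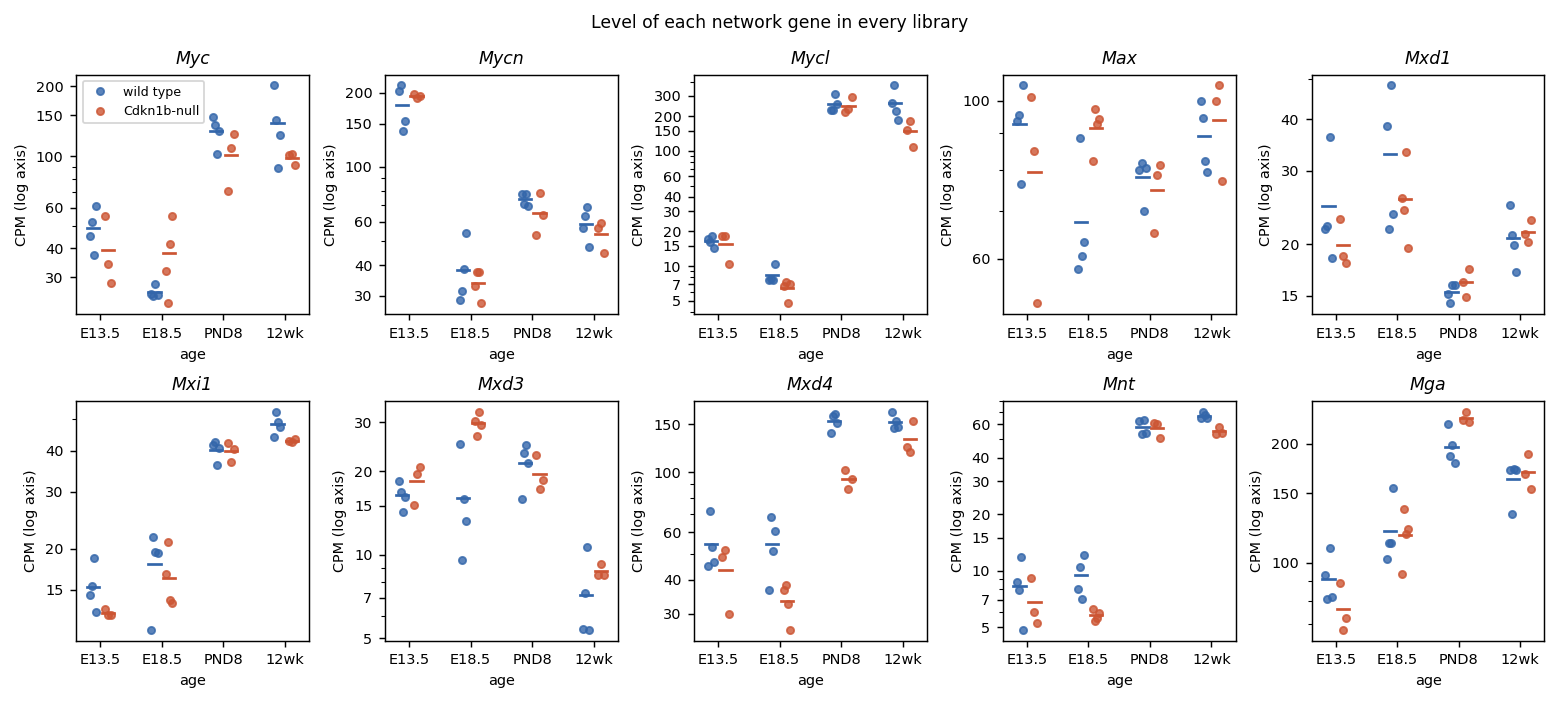
Level of each of the 10 genes in every library (CPM, log axis) by age and genotype; points are libraries and horizontal bars are group means. Mycn is highest at E13.5 (140 to 214 CPM in wild type), Mycl at PND8 and 12wk (184.9 to 370 CPM in wild type), and Max keeps the narrowest course.

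Max, the shared partner of the others, varied least in proportion: its wild-type group means lay between 67.7 and 92.8 CPM, the smallest ratio of highest to lowest mean among the 10 genes. It was 93.7, 95.5, 76.5 and 105 CPM at E13.5. It was 58.1, 88.7, 60.5 and 63.4 CPM at E18.5, where replicate 2 stood above the other 3. The groups overlapped, and the fall of 0.46 on the log2 scale sat at the threshold (SE 0.163, adjusted p = 0.0499). It stayed called in only 2 of 8 fits that each left out 1 library (adjusted p 0.00374 to 0.134), those without E13.5 replicate 3 and without E18.5 replicate 2. At PND8 Max was 80.0, 81.8, 70.0 and 80.5 CPM and at 12wk 99.9, 94.6, 82.4 and 79.4 CPM, and neither step passed the test (adjusted p = 0.529 and 0.0514).

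The Mxd repressors split by age. Mxd1, known from differentiating cells, was 38.4, 21.7, 48.2 and 23.6 CPM at E18.5. It was 15.2, 14.4, 15.9 and 15.9 CPM at PND8. All PND8 libraries were lower, and the fall of 1.18 on the log2 scale passed the test (SE 0.224, adjusted p = 0.000708). The 2 high E18.5 libraries, replicates 1 and 3, were those with the larger globin share, and at E13.5 the globin-rich replicate 3 was also the highest for Mxd1 (36.2 CPM against 18.5 to 22.1 in the other 3). Globin took at most 0.0172% of the counts in the PND8 wild-type libraries, and 6 of 6 tested erythroid markers were called lower at PND8; their part in the Mxd1 values was not tested. Mxd1 then rose by 0.52 to 12wk (SE 0.118, adjusted p = 0.0104), where it was 24.9, 21.0, 19.9 and 17.1 CPM.

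Mxi1 (also called Mxd2) rose across birth. Its wild-type libraries were 11.3, 21.7, 19.6 and 19.5 CPM at E18.5 and 41.6, 42.7, 36.1 and 40.9 CPM at PND8, with no overlap (log2 change 1.07, SE 0.193, adjusted p = 0.00051). It was 44.0, 52.8, 49.2 and 47.4 CPM at 12wk, a further rise of 0.35 (SE 0.091, adjusted p = 0.0187).

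Mxd3, which is known for peaking in S phase of dividing cells, was 15.9, 23.3, 24.9 and 21.3 CPM at PND8 and 5.4, 7.27, 10.7 and 5.38 CPM at 12wk. The ages did not overlap, and Mxd3 fell by 1.48 on the log2 scale (SE 0.238, adjusted p = 0.0022). Its earlier steps did not pass the test (log2 changes -0.06 and 0.34). The 6 listed proliferation markers were all called lower at 12wk against PND8, and their part in the fall of Mxd3 was not tested. The Mxd3 gene overlaps Prelid1 on the opposite strand, which drew 751% of the Mxd3 counts, and strandedness is not given in the sources used here, so part of the Mxd3 reads may belong to Prelid1. Prelid1 averaged 152 CPM at PND8 and 145 CPM at 12wk in wild type.

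Mxd4, the remaining Mxd repressor, was 36.8, 68.3, 51.3 and 60.4 CPM at E18.5 and 139, 161, 164 and 152 CPM at PND8 in wild type. The PND8 libraries were all higher, 2.84 times on the ratio of means, and 12wk (167, 145, 155 and 147 CPM) lay in the same range as PND8.

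Mnt showed the second largest rise across birth among the 9 tested genes. It was 8.04, 10.5, 7.09 and 12.1 CPM at E18.5 and 62.4, 53.4, 63.5 and 54.1 CPM at PND8. The log2 change was 2.53 (SE 0.184, adjusted p = 8.93e-07), a fitted 5.79-fold. At 12wk Mnt was 64.7, 70.1, 67.0 and 64.7 CPM, a rise of 0.28 (adjusted p = 0.0355) that was kept in 3 of 8 fits with 1 library left out. The call was lost without PND8 replicate 2 or 4 or 12wk replicate 2, 3 or 4. Mga was 102, 112, 112 and 155 CPM at E18.5 and 224, 186, 198 and 179 CPM at PND8, with no overlap and a log2 change of 0.62 (SE 0.15, adjusted p = 0.00347).

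In counts, 4 of the 9 tested genes were called lower from E13.5 to E18.5 (Myc, Mycn, Mycl and Max) and none higher, where 34.0% of all 16603 genes tested were called (16.6% higher, 17.5% lower). From E18.5 to PND8, 7 of 9 were called, 6 of them higher and Mxd1 lower, where 74.6% of 17421 genes were called (37.6% higher, 36.9% lower). From PND8 to 12wk, 4 of 9 were called, with Mxd1, Mxi1 and Mnt higher and Mxd3 lower, where 30.5% of 17293 genes were called (16.1% higher, 14.3% lower). With only 9 genes, the share of members called is read as near its background in all 3 steps, and no difference was tested. The median log2 change of the 9 was -0.06, 0.86 and 0.19 in the 3 steps, against 0.01, 0.01 and -0.01 over all genes.

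**Figure D2:**
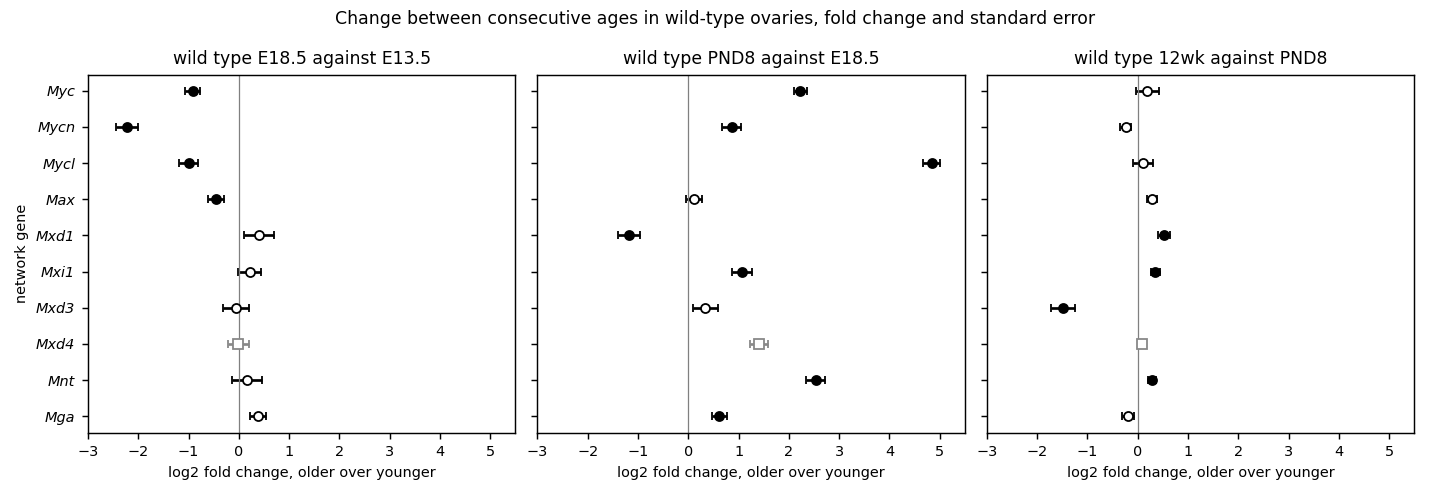
Wild-type log2 fold change of each gene between consecutive ages, with SE bars; filled points passed adjusted p under 0.05, open points did not, and the grey open square is Mxd4, which was not tested. Mycl (4.84), Mnt (2.53) and Myc (2.23) lead the step from E18.5 to PND8.

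Dividing by the length of the joined exons (CPM per kb) allowed levels to be set against each other. At E13.5 in wild type Mycn led at 54.0 ± 11.1 CPM per kb (SD, n = 4), above Max at 25.8 ± 3.33, with separate library ranges. Max and Myc (18.0 ± 3.68) overlapped as neighbours, and Mnt was last at 1.8 ± 0.623, overlapping Mxi1 at 2.24 ± 0.367. At E18.5 Max led at 18.8 ± 3.94 CPM per kb, every pair of neighbours in the order overlapped, and Mycl (2.06 ± 0.364) and Mnt (2.04 ± 0.491) closed it. At PND8 Mycl led at 63.4 ± 10.1 CPM per kb and Myc followed at 47.5 ± 7.27, with separate ranges, while Mxd1 was last at 2.17 ± 0.0993. This order depends on the length used: with median transcript length in place of joined exons, Max ranked first and Mycn second at E13.5. At PND8 Mycl then stayed first, Mxd4 took rank 2, Myc rank 6 and Mxd3 rank 10, the last.

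Within the activators, the lead passed from Mycn to Mycl. Mycn made up 70.7 ± 4.77% of the summed activator level per kb in wild type at E13.5, then 49.2 ± 6.15%, 16.8 ± 0.643% and 13.9 ± 3.72% over the later ages (n = 4 each). Mycl made up 5.51 ± 1.35%, 8.9 ± 0.746%, 47.4 ± 6.2% and 47.8 ± 6.84%. The libraries of the fetal and postnatal ages did not overlap for either gene. With median transcript length the Mycl share was larger at every age, at 19.0, 27.7, 77.1 and 77.2%, and its order over the ages was the same. The summed activator level was lowest at E18.5, at 23.2 ± 3.78 CPM per kb against 76.0 ± 12.1 at E13.5 and 133 ± 4.59 at PND8. In null ovaries Mycn also led at E13.5 (76.5 ± 5.66%, n = 3) and Mycl at PND8 (52.0 ± 4.48%, n = 3). At E18.5 the null means put Myc first (52.8 ± 11.2%, Mycn 40.8 ± 10.1%, n = 4), where in wild type Mycn had the higher mean (49.2 ± 6.15%, Myc 41.9 ± 6.19%). The genotypes overlapped for both shares at E18.5. Myc ran from 32.8 to 46.9% in wild type and 39.4 to 66.5% in null ovaries, and Mycn from 43.8 to 57.9% and 27.8 to 52.2%. With median transcript length Myc and Mycn were level in wild type at E18.5 (36.2 and 36.1%), and Myc had the highest mean in null ovaries. At 12wk Myc and Mycl were level in null ovaries by joined exons (41.0 ± 4.21% and 40.7 ± 4.35%, n = 3). With median transcript length they were 20.3 and 72.0%, so that Mycl led.

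**Figure D3:**
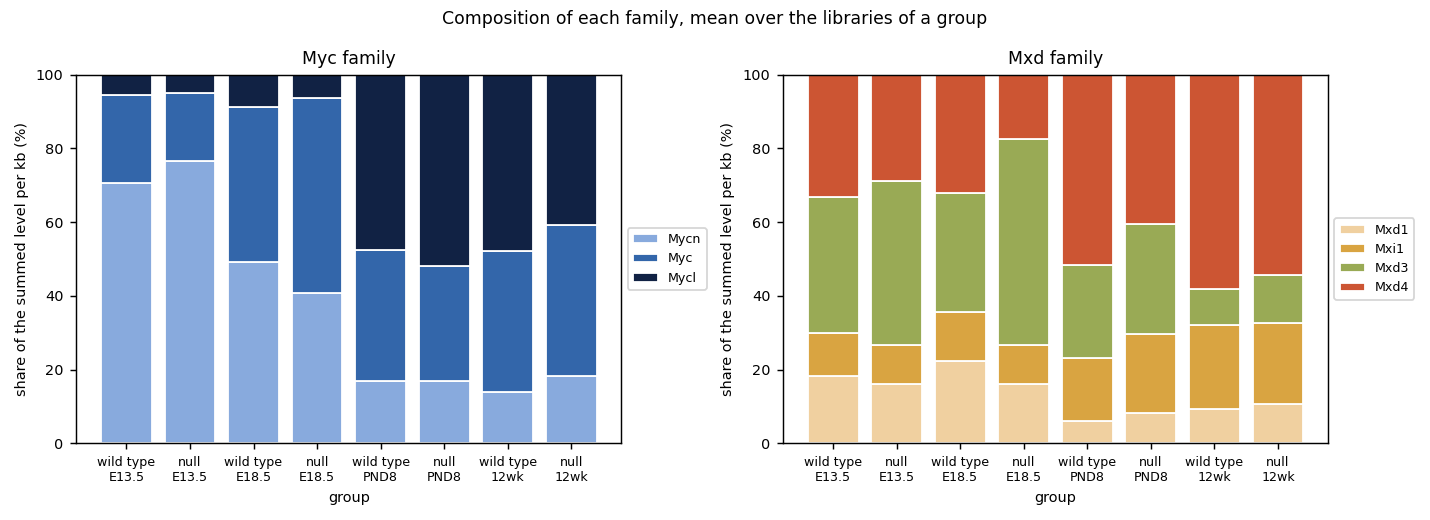
Mean share (%) of each gene in the summed level per kb of the activators and of the Mxd repressors, by age and genotype (stacked bars, 3 or 4 libraries each). Mycn fills 70.7% of the wild-type activator bar at E13.5 and 13.9% at 12wk, and Mxd4 grows from 33.3% to 58.1% of the wild-type Mxd bar.

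The comparison of genotypes asked what differs in the network when p27Kip1 is lost. None of the 9 tested genes was called at any age by edgeR in its main setting. Some other edgeR settings called Mxd3 or Mnt at E18.5, as given in the closing section. At E13.5 the count was 0 of 9, also by DESeq2 and limma-voom and at an unadjusted p under 0.05, where 0.00606% of 16508 genes were called. At E18.5 it was 0 of 9, with 4 at an unadjusted p under 0.05 (22.1% of all genes) and 2 called by each of the other tools, where 4.99% of 16322 genes were called (3.32% higher, 1.67% lower). At PND8 it was 0 of 9, with 1 at an unadjusted p under 0.05 (15.0% of all genes) and 0 by the other tools, where 0.349% of 17785 genes were called (0.045% higher, 0.304% lower). At 12wk it was 0 of 9, with 2 at an unadjusted p under 0.05 (9.63% of all genes), 1 by DESeq2 and 0 by limma-voom, where 0.0115% of 17396 genes were called. The genotypes separated without overlap for 3 of 9 genes at E18.5 (15.2% of all genes) and 3 at 12wk (8.77%). At PND8 this held for 1 (14.3%), and at E13.5 for 0 (3.73%). The median log2 fold change of the 9 was -0.3, -0.17, -0.06 and -0.14, in the order of the ages, against -0.008, -0.042, -0.003 and -0.004 over all genes.

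At E13.5 the genotypes overlapped for every gene of the network. Null ovaries gave Mycn at 197, 191 and 194 CPM, Myc at 55.3, 34.3 and 28.5 CPM and Max at 101, 85.0 and 52.0 CPM. The log2 fold changes of the 9 ran from -0.36 (Mxd1) to 0.13 (Mxd3), all with an adjusted p of 0.988.

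Mxd4 was chosen on this contrast. At E18.5 the wild-type libraries gave 36.8, 68.3, 51.3 and 60.4 CPM and the null libraries 36.6, 38.3, 32.6 and 26.2 CPM. Wild-type replicate 1 lay within the null range and the other 3 above it. At PND8 wild type gave 139, 161, 164 and 152 CPM and null ovaries 102, 86.9 and 94.4 CPM, so that all null libraries were lower. The log2 fold changes were -0.73 (SE 0.189) and -0.72 (SE 0.0733). The edgeR adjusted p-values of 0.0499 at E18.5 and 0.0216 at PND8 belong to the contrasts it was picked on and are no test of it. The E18.5 value sat just inside 0.05. The genes of the network nearest outside that limit at E18.5 were Mxd3 at 0.0599 and Mnt at 0.0655. At E13.5 the genotypes overlapped, with 44.9 to 71.8 CPM in wild type and 48.7, 51.7 and 29.8 CPM in null ovaries (log2 fold change -0.35, SE 0.239). They also overlapped at 12wk, with 145 to 167 CPM and then 124, 119 and 154 CPM (-0.21, SE 0.125). Stroma markers moved the same way: all 6 had negative log2 fold changes at E18.5 (2 called) and at PND8 (1 called), and their summed level was 2330 to 4090 CPM in wild type and 1950 to 3290 CPM in null ovaries at E18.5, and 6800 to 9470 and 5420 to 9220 CPM at PND8. Their part in the Mxd4 values was not tested. Gm42846, on the opposite strand of the Mxd4 gene, drew 5.44% of the Mxd4 counts.

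Mxd3 had the largest genotype difference among the tested genes at E18.5. Wild-type libraries gave 25.1, 9.61, 15.9 and 13.2 CPM and null libraries 30.4, 26.7, 32.7 and 29.3 CPM. All null libraries were higher, although wild-type replicate 1 came close. The log2 fold change was 0.88 (SE 0.238, adjusted p = 0.0599) and did not pass the test. It passed in 6 of 7 other settings (adjusted p 0.00657 to 0.0598) and, with wild-type replicate 1 left out, was 1.17 (adjusted p = 0.0039); the other 7 such fits did not call it. Proliferation markers moved with it: 5 of 6 were called higher (median log2 fold change 1.05), and their sum was 346 to 529 CPM in wild type, highest in the same replicate 1, and 831 to 1100 CPM in null ovaries. Their part in the Mxd3 values was not tested. Prelid1 on the opposite strand averaged 91.6 ± 22.2 CPM in wild type and 113 ± 6.91 CPM in null ovaries at E18.5 (log2 fold change 0.26, adjusted p = 0.364).

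Within the Mxd repressors the balance at E18.5 differed between genotypes in mean share. Mxd3 made up 32.4 ± 11.1% in wild type (range 22.1 to 48.1) and 55.9 ± 4.39% in null ovaries (50.5 to 61.2), and Mxd4 32.1 ± 10.8% and 17.4 ± 2.37% (n = 4 each). At PND8 the Mxd4 share was 51.5 ± 0.612% in wild type and 40.4 ± 0.578% in null ovaries. With median transcript length the E18.5 shares were 11.5 and 25.4% for Mxd3 and 43.6 and 31.5% for Mxd4 (wild type, then null), so that Mxd4 led in both genotypes. At PND8 the Mxd4 share was then 68.4 and 57.3%. These shares contain Mxd4, which was picked for its genotype difference, and are a description.

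Mnt gave 8.04, 10.5, 7.09 and 12.1 CPM in wild type and 6.27, 5.41, 5.63 and 5.97 CPM in null ovaries at E18.5. All null libraries were lower, and the log2 fold change of -0.73 did not pass the test (SE 0.204, adjusted p = 0.0655). At 12wk wild type gave 64.7, 70.1, 67.0 and 64.7 CPM and null ovaries 53.3, 57.9 and 54.3 CPM, again without overlap (log2 fold change -0.28, SE 0.0735, adjusted p = 0.382). DESeq2 called this difference (adjusted p = 0.0328), and over all settings the adjusted p ran from 0.0328 to 0.734. At PND8 Mnt did not separate (log2 fold change -0.04).

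The activators were not called at any age. Myc at E18.5 was 32.1, 23.2, 41.7 and 55.3 CPM in null ovaries against 24.9 to 28.2 CPM in wild type. Null replicate 2 lay below every wild-type library and the other 3 above them (log2 fold change 0.52, SE 0.221, adjusted p = 0.194). At PND8 and 12wk the sign was the opposite (-0.36 and -0.52, adjusted p = 0.487 and 0.553). Mycl at 12wk was 153, 182 and 108 CPM in null ovaries and 259, 370, 222 and 184.9 CPM in wild type, which separates the genotypes by a narrow gap (log2 fold change -0.83, SE 0.252, adjusted p = 0.414). Oocyte markers at 12wk also had negative log2 fold changes, in 7 of 7 genes tested with 0 called by edgeR (7 at an unadjusted p under 0.05, 3 by DESeq2, 0 by limma-voom). They summed to 11.5, 7.09, 94.9 and 29.3 CPM in wild type and 4.39 to 6.68 CPM in null ovaries. The wild-type sum was lowest in replicate 2, where Mycl was highest. Granulosa-lineage markers had 7 of 9 negative signs at 12wk with 0 called by edgeR (4 at an unadjusted p under 0.05, 2 by DESeq2, 0 by limma-voom). The part of either list in the Mycl values was not tested. Mycn differed by -0.2 at E18.5 and by -0.19 at PND8, far from the threshold (adjusted p = 0.552 and 0.528).

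Max at E18.5 was 82.3, 97.3, 92.8 and 94.1 CPM in null ovaries and 58.1, 88.7, 60.5 and 63.4 CPM in wild type (log2 fold change 0.4, SE 0.142, adjusted p = 0.129). Wild-type replicate 2 lay among the null libraries, and without it the change was 0.57 (adjusted p = 0.0071). Mga was 230, 241 and 227 CPM in null ovaries and 224, 186, 198 and 179 CPM in wild type at PND8, separate but not called (log2 fold change 0.23, SE 0.0975, adjusted p = 0.32). Mxi1 at 12wk was 43.0, 42.6 and 43.5 CPM in null ovaries and 44.0 to 52.8 CPM in wild type (log2 fold change -0.18, adjusted p = 0.606). Mxd1 stayed within overlapping ranges at every age.

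**Figure D4:**
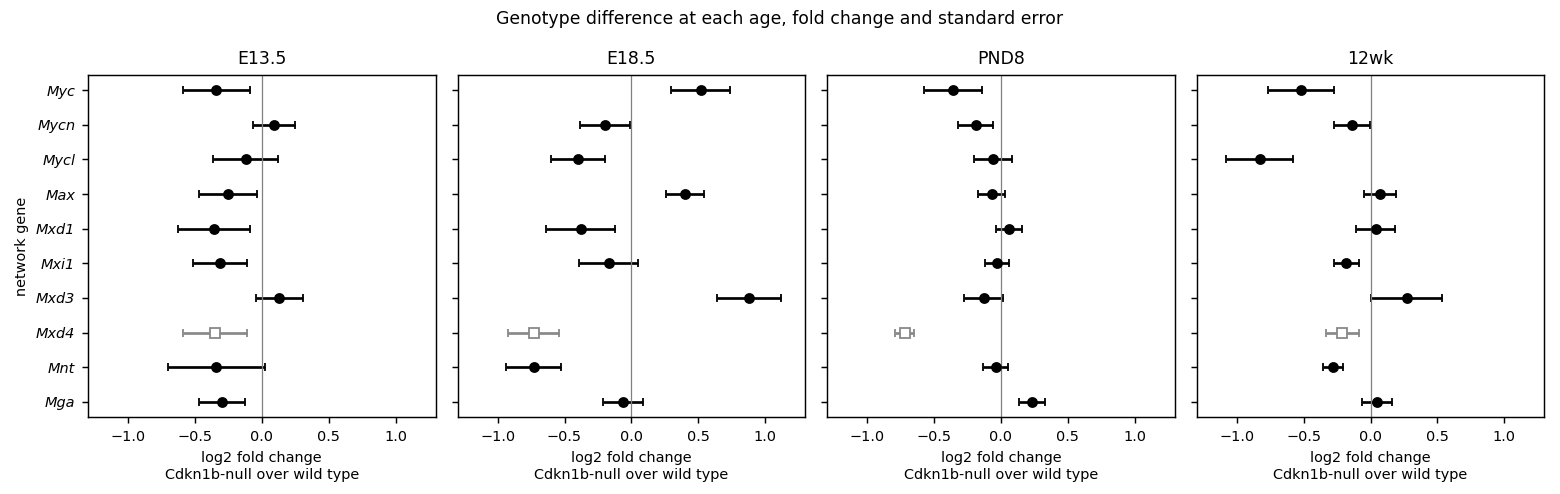
Log2 fold change of null over wild type for each gene at the 4 ages, with SE bars; the grey open square is Mxd4, which was not tested. At E18.5 Mxd3 (0.88) lies farthest above 0 and Mnt and Mxd4 (both -0.73) farthest below it.

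Whether the genotype effect differed among ages was tested over all 29 libraries with 3 interaction terms. It was called for 0 of the 9 genes by edgeR, DESeq2 and limma-voom alike, where 0.806% of 20359 genes were called by edgeR. At an unadjusted p under 0.05 there were 2, where 12.7% of all genes were. These were Myc (adjusted p = 0.328) and Mxd3 (adjusted p = 0.332). From E13.5 to E18.5 the ratio of mean Myc levels was 0.532 in wild type and 0.967 in null ovaries, and that of Mxd3 was 0.972 and 1.62.

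Genes that work with the network were followed through lists. Over all genes at E18.5, 3.32% were called higher in null ovaries and 1.67% lower. The cell cycle targets of Myc were called higher in null ovaries at that age for 5 of 11 genes and lower for 1. Mcm4, part of the replicative helicase, went from 107 ± 13.0 to 232 ± 16.8 CPM (log2 fold change 1.09, adjusted p = 0.000729). Plk1 (1.58, adjusted p = 0.000955) and Ccnb1 (1.42, adjusted p = 0.00227), which drive mitosis, were also higher. Ccnd2, a D-type cyclin prominent in granulosa cells, was lower, from 850 ± 87.1 to 489 ± 36.8 CPM (-0.83, adjusted p = 0.00227). The list median was 0.2 against -0.04 over all genes.

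The metabolic and growth targets had 4 of 23 genes called higher and 0 lower (median 0.33). Shmt1 of folate metabolism went from 22.7 ± 0.934 to 47.2 ± 3.94 CPM (log2 fold change 1.03, adjusted p = 0.000955), Mthfd1 of the same pathway rose by 0.62 (adjusted p = 0.00321) and Ppat, the first enzyme of purine synthesis, by 0.65 (adjusted p = 0.00979). In the ribosome biogenesis list 0 of 33 genes were called by edgeR in either direction, with 28 of 33 signs positive and a median of 0.2; 11 had an unadjusted p under 0.05, DESeq2 called 3 and limma-voom 5. Of the genes that set Myc turnover, 3 of 14 were called higher. They were the mitotic kinase Aurka (1.29, adjusted p = 0.00188), the phosphatase inhibitor Cip2a (0.59, adjusted p = 0.0224) and Skp2 (0.64, adjusted p = 0.0411), the ubiquitin ligase subunit that marks p27Kip1 for destruction. Cip2a and Skp2 each stayed called in 3 of 8 fits with 1 library left out (adjusted p up to 0.0933 and 0.122). Both were lost without wild-type replicate 3 or 4 or null replicate 3 or 4, Cip2a also without null replicate 2 and Skp2 without null replicate 1.

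Among the PRC1.6 partners of Mga, 2 of 11 were called higher, Tfdp1, the dimer partner of E2F factors (0.51, adjusted p = 0.0149, and 0.0751 without null replicate 3), and L3mbtl2, a subunit of the complex (0.54, adjusted p = 0.0449, called only without wild-type replicate 2 or null replicate 1 among 8 fits that left out 1 library, adjusted p 0.0172 to 0.146). Of the Myc coactivators, 1 of 15 was called, the remodelling ATPase Ruvbl2 (0.48, adjusted p = 0.0196, called in 4 of 8 fits with 1 library left out, and lost (adjusted p up to 0.0817) without wild-type replicate 4 or null replicate 2, 3 or 4). The Sin3-HDAC corepressor had 0 of 15 called by edgeR (7 at an unadjusted p under 0.05, 2 by DESeq2, 1 by limma-voom), and the Mlx arm 0 of 3 (1 at an unadjusted p under 0.05, 0 by the other tools). In the list of meiotic genes named for repression by Max and Mga, all 14 tested had negative log2 fold changes at E18.5 (median -0.59). EdgeR called 0 of them (4 at an unadjusted p under 0.05, 4 by DESeq2, 1 by limma-voom). The list was not silent in these ovaries at E18.5. It summed to 1050, 2020, 944 and 1880 CPM in wild type and 764, 1390, 925 and 707 CPM in null ovaries, so the genotypes overlapped. The germ cell markers, 3 of whose 5 genes are in that list, had 4 of 4 negative signs with 0 called (1 at an unadjusted p under 0.05, 1 by DESeq2, 0 by limma-voom). The same proliferation markers as above were higher beside all of these lists, and their part was not tested.

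At PND8 edgeR made a single call over the 9 lists (8 genes at an unadjusted p under 0.05, 5 called by DESeq2, 1 by limma-voom). It was Ccnd1, the D1 cyclin, which went from 40.8 ± 5.63 CPM (n = 4) to 22.9 ± 1.03 CPM (n = 3; log2 fold change -0.85, adjusted p = 0.0371). It was called in 2 of 7 fits with 1 library left out, those without wild-type replicate 3 and null replicate 1 (adjusted p 0.00971 to 0.185). At E13.5 and 12wk edgeR called 0 genes of any of the 9 lists; an unadjusted p under 0.05 was found for 3 list genes at E13.5 and 7 at 12wk, DESeq2 called 0 and 1 of them, and limma-voom 0 at both. At E13.5 the meiotic list had 14 of 14 positive signs (median 0.83), with null replicate 3 at a summed 1630 CPM against 380 and 738 CPM in the other null libraries and 491 to 658 CPM in wild type.

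**Figure D5:**
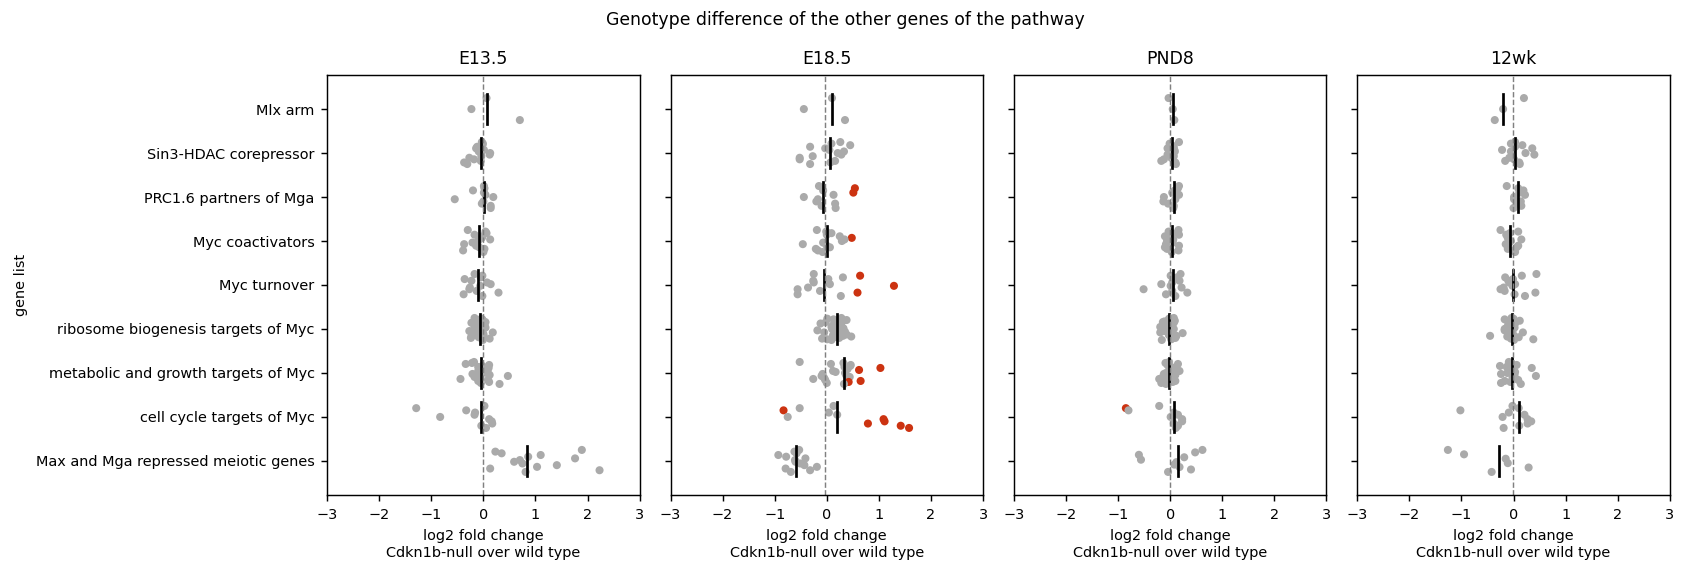
Log2 fold change of null over wild type for each gene of the 9 lists, with a panel for each age. Red points passed adjusted p under 0.05, black bars are list medians and the dashed line is the median of all genes. At E18.5 the red points lie mostly in the cell cycle, metabolic and turnover lists, and the meiotic list lies wholly below 0. At E13.5 the meiotic list lies wholly above 0.

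With age in wild type, the same lists moved more widely, as did all genes. Over all genes, 16.6% were called higher and 17.5% lower from E13.5 to E18.5. These shares were 37.6% and 36.9% from E18.5 to PND8, and 16.1% and 14.3% from PND8 to 12wk. From E13.5 to E18.5, 31 of 33 ribosome biogenesis genes were called lower (median -0.73) and 0 higher; the 2 not called were Tcof1 (-0.45) and Las1l (-0.09). Among metabolic targets 14 of 23 were lower and 0 higher, and among cell cycle targets 7 of 11 were lower and Ccnd2 was higher. From E18.5 to PND8, 20 ribosome biogenesis genes were called higher and 4 lower (median 0.54), together near the 74.6% of all genes called. From PND8 to 12wk 14 were lower and 0 higher (median -0.25). Proliferation markers moved in the same directions, with 5 of 6 called lower from E13.5 to E18.5 (median -1.47), 5 of 6 higher at PND8 and 6 of 6 lower at 12wk, and their part was not tested. The meiotic genes had 9 of 15 called higher and 3 lower from E13.5 to E18.5, with Stra8, Ddx4 and Stag3 lower, and all 14 tested were lower at PND8 (median -5.41). Germ cell markers fell in the same step, with 3 of 5 called lower and 1 higher (median -3.1) and a summed level of 176 to 539 CPM at E18.5 and 26.1 to 125 CPM at PND8; their part was not tested. The Mlx arm had Mlxip (2.49) and Mlxipl (2.30), partners of Mlx that sense glucose, called higher at PND8 and Mlx (-0.46) lower.

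The genes whose mean log2 CPM over the 8 groups ran most like that of a network gene were found among 11584 genes, as a description. For Myc they were Hk1 and Gpi1 (r = 0.996 each) and Dok7 (0.988). For Mycn they were Slc5a6 (0.993), Polr3g (0.98) and Sv2a (0.978). For Mxd3 they were Slc2a4 (0.984), Nbn (0.966) and Bag2 (0.961), and for Mxd4 they included Dalrd3 (0.992) and Pltp (0.987). The 8 points of any pair of genes come from the same libraries with the same scaling.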

How the data were processed

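The authors deposited a table of RSEM expected counts (estimated read counts per gene, not normalized) of 29 libraries, per the file headers, which name 2 combined projects. The submitters' processing notes name Trim Galore, STAR 2.5.2, RSEM 1.3.0 and FastQC 0.11.5; the genome build and annotation are not given in the sources used here. Of the values above 0, 31.4% were not whole, and all were rounded. Symbols were matched by ID for 51633 genes. Positions and exon lengths are from GENCODE M21 (GRCm38), promoter sequences from RefSeq (GRCm38.p6).

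Genotypes were compared within each age, and consecutive ages in wild type, with edgeR 4.0.16 in R 4.3.3 (TMM, filterByExpr, robust quasi-likelihood F test) on all genes, with Benjamini-Hochberg adjustment; called means adjusted p under 0.05. SE is the log2 fold change over the square root of F. Scripts were tested on simulated data. Named list genes are up to 3 in each direction with the smallest p per list and genotype effect; list genes named for wild-type age steps, and Prelid1, Gm42846 and Dmrt1, were chosen after their values were seen. One gene most like Mxd4 is not reported here. The network's genes and the lists were chosen with earlier results of these data known. Alternatives were RLE size factors, no filter, DESeq2 1.42.0, limma-voom (limma 3.58.1), a replicate block, all groups in 1 fit and leaving out each library.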

Additional observations from a re-analysis of the deposited data

Results flagged for a closer look

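In 3 of 50 groups of 4 libraries (10 genes in 5 groups) a single library stood apart from the other 3 by more than Dixon's limit, which chance passes in about 1 in 20 groups. Mycl in wild type at E18.5 was highest in replicate 4, at 10.5 CPM against 7.52 to 7.76 in the others. Max in wild type at PND8 was lowest in replicate 3, at 70.0 CPM. Mga in wild type at 12wk was lowest in replicate 2, at 133 CPM.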

How the results depend on the processing

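At E18.5 the count of the 9 tested genes called between genotypes moved from 0 to 1 with no filter on low counts (Mxd3), 2 with DESeq2 (Mxd3 and Mnt), 2 with limma-voom (Mxd3 and Max), 1 with the replicate block (Mxd3), 2 with all groups in 1 fit (Mxd3 and Mnt) and 1 with a term for the globin split, chosen after seeing the data (Mxd3); leaving out each library gave 0 to 1. At 12wk DESeq2 called 1 (Mnt). From PND8 to 12wk in wild type all groups in 1 fit called 1 in place of 4 (Mxd3). The cause was not tested. The counts at E13.5 and PND8, of the other wild-type steps and of the interaction moved by no more than 1.5 times.

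Signs turned only in changes that were not called: with limma-voom Mga at E18.5 (0.01), Mnt at PND8 (0.02) and Mycl from PND8 to 12wk (-0.09), and with the replicate block Mga at 12wk (-0.03). With each library left out in turn, log2 fold changes crossed 0 for Mycl at E13.5 (-0.25 to 0.11), Mycn (-0.32 to 0.01) and Mga (-0.14 to 0.08) at E18.5, and at PND8 for Mycl (-0.22 to 0.04), Max (-0.15 to 0.03), Mxi1 (-0.08 to 0.03), Mxd1 (-0.01 to 0.12) and Mnt (-0.08 to 0.03). They also did so at 12wk for Mga (-0.04 to 0.1) and Mxd1 (-0.04 to 0.14), from E13.5 to E18.5 for Mnt (-0.03 to 0.4) and Mxd3 (-0.35 to 0.11), and from PND8 to 12wk for Myc (-0.03 to 0.36) and Mycl (-0.12 to 0.23).

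The replicate numbers were not taken to pair libraries: correlations of same-numbered libraries ran from -0.094 to 0.16. With the replicate block the count of all genes called went from 62 to 12 at PND8 and from 2 to 10 at 12wk. Over all genes, DESeq2 called 65, 1685, 824 and 326 at the 4 ages against 1, 814, 62 and 2, and leaving out each library gave 246 to 1372 at E18.5. Without a filter 258 were called at PND8 and 12 at 12wk, with limma-voom 169 and 7 at these ages and 1735 at E18.5, and with all groups in 1 fit 59, 0 and 68 at E13.5, PND8 and 12wk. DESeq2 called 706 for the interaction against 164.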
